A study of Mus musculus with 6 samples.

Results

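Yap1, Wwtr1 (the gene of TAZ), Tead1, Tead2, Tead3, Tead4, Vgll3 and Vgll4 are the coactivators, DNA-binding factors and cofactors at the end of the Hippo pathway. They were chosen by symbol, without use of their values in the rule, though earlier results of these data were known. All 8 were found among the 35027 genes of the deposited table. Their transcripts were measured by RNA-seq in about 20000 Kate-positive cells per library, sorted from mouse thyroid tumors of 2 genotypes with 3 libraries each. The comparison asks how these 8 genes differed when mutant Braf was added to a YAP-driven tumor.

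Both genotypes carried a thyroid-specific Cre, the RIK allele (rtTA and the red fluorescent protein Kate at the Rosa locus) and a tetO-YAPS127A transgene, which encodes a constitutively nuclear YAP. BrafYAP mice carried in addition an LSL-Braf allele, so that BrafV600E was expressed from the endogenous gene. By the labels and the methods of the paper, dox chow was given from 4 weeks of age. The age at collection is not given in the sources used here, and the results text of the paper gives a later start of dox. Kate marks cells in which this Cre was active, with thyroid follicular cells as its known site. The libraries are YAP replicates 1, 2 and 3 and BrafYAP replicates 1, 2 and 6. The labels give 3 pooled tumors for a YAP library and 1 tumor for a BrafYAP library, whereas the methods of the paper give 1 tumor per mouse for each replicate. If the labels are right, pooling and genotype cannot be told apart.

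YAP and TAZ do not bind DNA. They enter the nucleus when the Hippo kinases are inactive and act through the TEAD factors, which hold them on enhancers and promoters. VGLL proteins bind an overlapping surface of TEAD, and VGLL4 competes there with YAP. In thyroid cells TAZ is also known as a partner of the lineage factors PAX8 and NKX2-1.

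Estimated reads numbered 26.2 to 36.9 M per library. BrafYAP replicate 6 stood apart. Its Pearson correlation with the other libraries across genes was 0.7312 to 0.8365, against 0.9083 to 0.938 between YAP libraries and 0.9679 between BrafYAP replicates 1 and 2. Of 11 thyroid follicular cell markers, 9 were highest in BrafYAP replicate 6, as were 23.8% of all genes tested. Pax8, of the same list, was lowest there, with 5136 scaled reads against 7151 to 14514 in the other libraries. Thyroglobulin (Tg) had 22118 reads there, 116 and 66 in BrafYAP replicates 1 and 2, and 1046 to 16193 in the YAP libraries. Tshr, the receptor of thyrotropin, had 554 reads in BrafYAP replicate 6 and was at 0 in BrafYAP replicates 1 and 2, which allows up to 3 reads in each, so that this defining marker was detected in neither. The summed scaled reads of the 11 markers were 14367 to 32126 in YAP and 8510 to 33991 in BrafYAP. The log2 fold change of each of the 8 genes and the median of each pathway list are therefore also given without BrafYAP replicate 6.

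Scaled reads, used throughout unless TPM are named, are the deposited TPM with the division by gene length undone and the authors' scaling between libraries kept. A fold change is BrafYAP minus YAP on the log2(scaled reads + 1) scale, from limma over the 16807 genes with a mean of at least 10 scaled reads, and all 8 genes passed that filter.

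None of the 8 genes differed between the genotypes after adjustment. With limma and Benjamini-Hochberg adjustment, 0 of 8 passed an adjusted p of 0.05, as did 0% of all genes tested. At an unadjusted p under 0.05, 1 of 8 passed (Wwtr1), against 20.3% of all genes. In 0 of 8 did the groups not overlap, against 28.8% of all genes. The median log2 fold change was 0.0015 for the 8 genes, of which 4 had a positive value, and -0.12 for all genes tested. Under median-ratio rescaling, which moved the median of all genes to 0.01, the log2 fold changes of Yap1, Tead2 and Tead3 changed sign, to 0.10, 0.10 and 0.027.

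**Figure D1:**
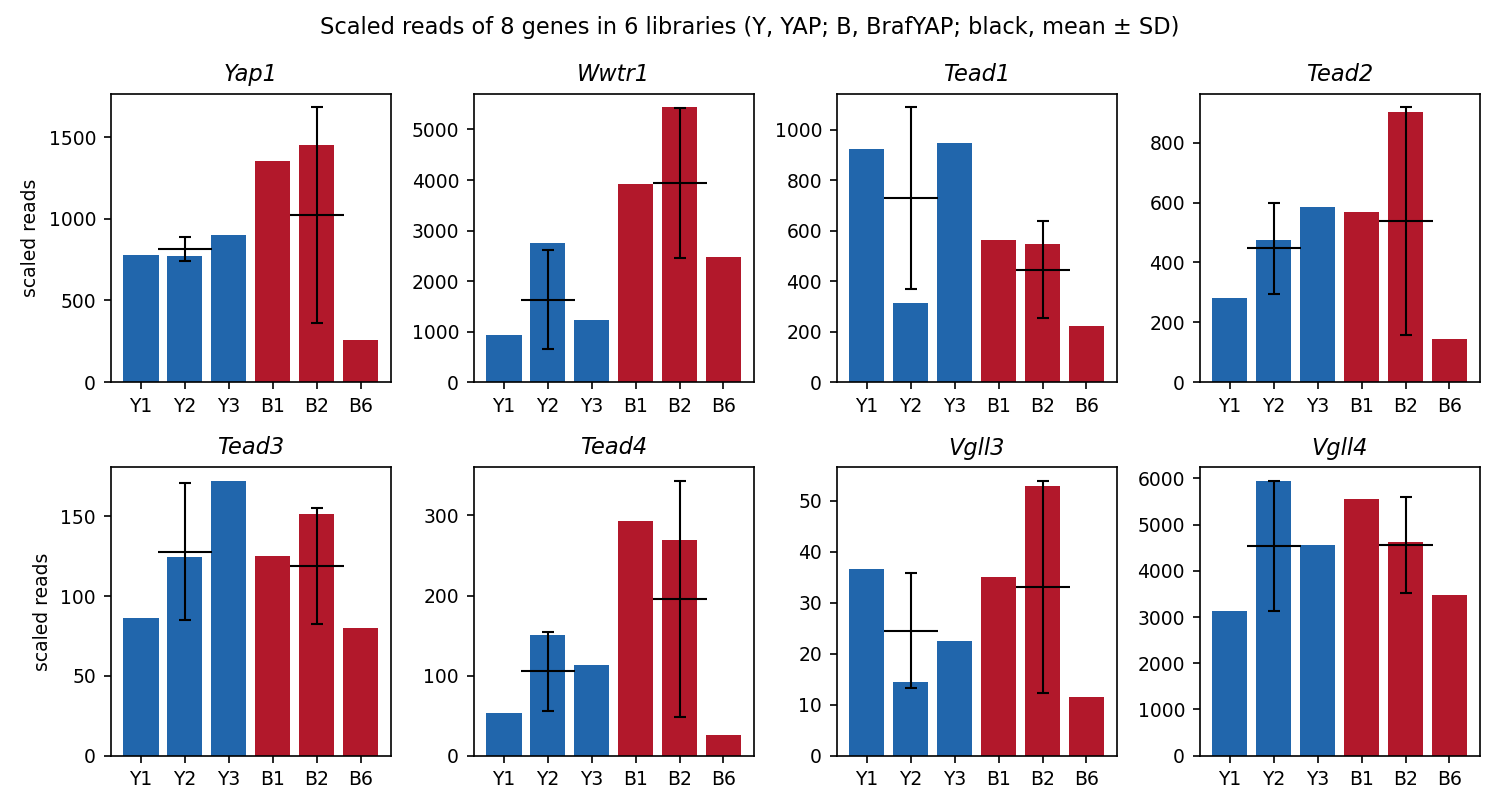
Scaled reads of each gene (y axis, linear from 0) in YAP replicates 1 to 3 (Y, blue bars) and BrafYAP replicates 1, 2 and 6 (B, red bars), with the mean and SD of each group in black (n = 3). BrafYAP replicate 6 is the lowest bar in 6 of the 8 genes, and the group means of Wwtr1 are 1636 in YAP and 3944 in BrafYAP.

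Of the coactivators, Wwtr1 had the largest difference between the genotypes among the 8 genes over the 6 libraries (with a replicate block, Tead4 had a larger one) and Yap1 had almost none. TAZ, encoded by Wwtr1 (chromosome 3, 57455649 to 57575910, minus strand, mm10), shares with YAP its TEAD-binding and WW domains. Wwtr1 had 935, 2749 and 1222 scaled reads in YAP replicates 1 to 3, and 3915, 5440 and 2476 in BrafYAP replicates 1, 2 and 6. BrafYAP replicates 1 and 2 were above every YAP library, and BrafYAP replicate 6 was above YAP replicates 1 and 3 but below YAP replicate 2. The means were 1636 ± 975 (SD, n = 3) and 3944 ± 1482 (SD, n = 3). The log2 fold change was 1.36 (SE 0.49, 95% interval 0.22 to 2.50), a 2.56-fold difference, with an adjusted p of 0.188 by limma (unadjusted 0.0258). Leaving out each library in turn gave log2 fold changes of 1.03 to 1.81 and adjusted p-values from limma of 0.0803 to 0.422. Without BrafYAP replicate 6 the log2 fold change was 1.65 (adjusted p = 0.143 by limma). Wwtr1 thus kept its direction without any 1 library, but passed the adjusted threshold in none of these fits. With array weights, which give each library a weight from its spread, the log2 fold change was 1.74 and the adjusted p from limma 0.00508, in a fit that called 4659 of all genes.

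Yap1 (chromosome 9, 7931999 to 8004596, minus strand, mm10) encodes the coactivator that the transgene supplies in its mutant form. Reads of the transgene and of the endogenous gene cannot be told apart in this table, and the species of the transgene's cDNA is not given in the sources used here. Scaled reads were 775, 774 and 898 in YAP, and 1354, 1451 and 261 in BrafYAP. The YAP libraries lay close together, with BrafYAP replicates 1 and 2 above all of them and BrafYAP replicate 6 below all of them. The log2 fold change was -0.02 (SE 0.65, 95% interval -1.55 to 1.51, adjusted p = 0.987 by limma), an interval that holds a 2-fold difference in either direction. Without BrafYAP replicate 6 it was 0.78 (adjusted p = 0.179 by limma, unadjusted 0.0244). The 5.37-fold gap between BrafYAP replicate 6 and the mean of BrafYAP replicates 1 and 2 was larger than any gap between YAP libraries.

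Per kilobase of exon, Wwtr1 exceeded Yap1 in all 6 libraries. The part of the transgene in the Yap1 reads is unknown, so these values may not give all YAP transcripts. In TPM recomputed with exonic length, the ratio of Wwtr1 to Yap1 was 2.34, 6.88 and 2.64 in YAP and 5.60, 7.26 and 18.4 in BrafYAP. YAP replicate 2 lay within the BrafYAP range, and the highest ratio, in BrafYAP replicate 6, came with the lowest Yap1 level. Wwtr1 made up 76.6 ± 9.35% of the summed TPM of both genes in YAP and 89.2 ± 5.12% in BrafYAP (SD, n = 3). The order depends on the length used. With genomic span, Wwtr1 took 42.1% and 45.1% in YAP replicates 1 and 3, less than Yap1.

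**Figure D2:**
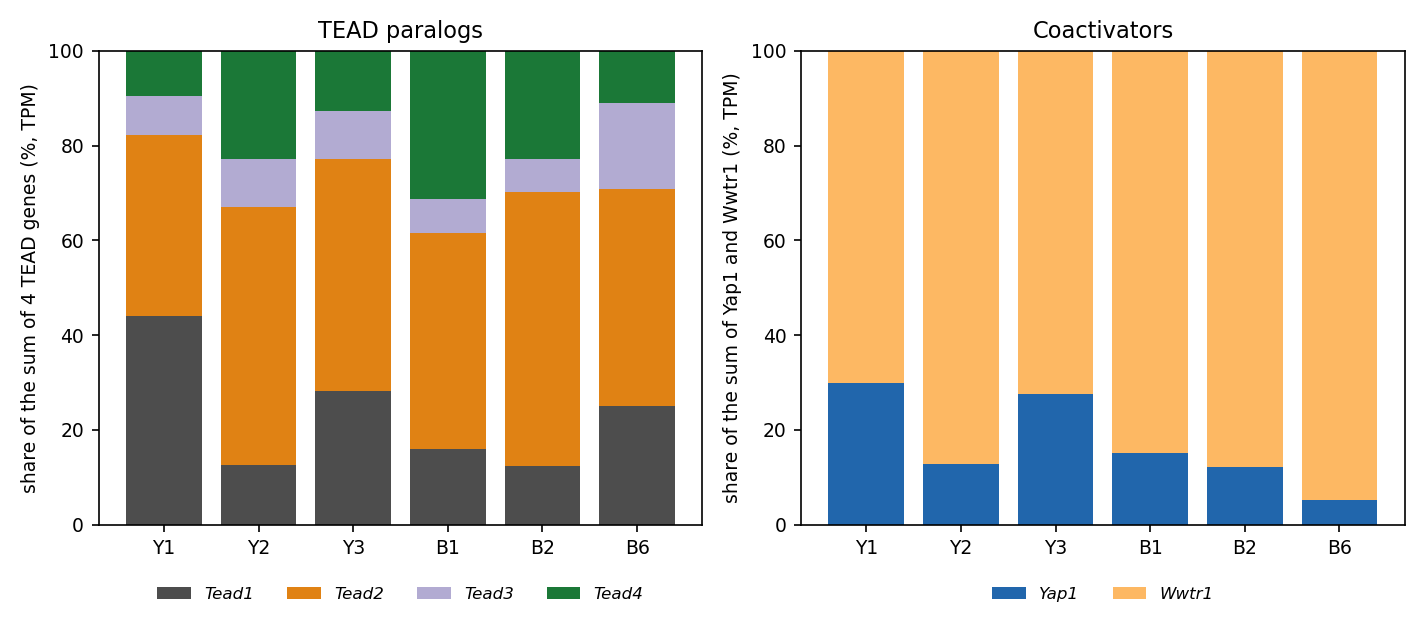
Share (%) of each TEAD gene in the summed TPM of Tead1 to Tead4 (left) and of Yap1 and Wwtr1 in theirs (right), by library, with Y for YAP and B for BrafYAP and TPM recomputed with exonic length. Tead2 or Tead1 takes the largest block of the TEAD sum in each library, and Wwtr1 takes 70.0 to 94.8% of the coactivator sum.

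TEAD factors recognise the letters GGAATG and its reverse complement CATTCC. RefSeq promoters (GRCm38.p6, 250 bases before to 50 after a start) were at hand for 6 of the 8 genes, all but Tead1 and Tead4. The letters, sought on both strands, were present in 5 of these 6 genes (Yap1, Wwtr1, Tead3, Vgll3 and Vgll4, not Tead2), in 7 of their 9 promoter windows, and in 16.6% of 27025 genes. The AP-1 letters TGANTCA, present in 8.97% of genes, and the ETS letters CCGGAAG, present in 9.93%, were found in 0 of 6, so no match overlapped another motif. The 30 bases around the TEAD letters in the window of the first listed start of each gene are shown, 5′ to 3′ on the strand of the gene with the matched letters in capitals, since these genes both supply and carry the TEAD module. They lie 141 (Yap1), 136 (Wwtr1), 182 (Tead3), 63 (Vgll3) and 82 (Vgll4) bases before that start. For Vgll4 and Tead3 that start is past the beginning of the gene's span in GENCODE. The matched letters are inside that span for Vgll4 and outside it for Tead3.
Yap1, chr9:8004720-8004749, minus strand: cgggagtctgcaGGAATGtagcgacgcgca
Wwtr1, chr3:57576029-57576058, minus strand: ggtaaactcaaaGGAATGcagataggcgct
Tead3, chr17:28350970-28350999, minus strand: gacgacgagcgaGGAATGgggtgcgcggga
Vgll3, chr16:65815114-65815143, plus strand: cccgcctccccaCATTCCggctaccctgcc
Vgll4, chr6:114969268-114969297, minus strand: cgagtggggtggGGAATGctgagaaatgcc

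For Wwtr1, the gene with the largest difference between genotypes, the 250 bases before the first start follow, on the same strand (chr3:57575911-57576160).
Wwtr1 upstream: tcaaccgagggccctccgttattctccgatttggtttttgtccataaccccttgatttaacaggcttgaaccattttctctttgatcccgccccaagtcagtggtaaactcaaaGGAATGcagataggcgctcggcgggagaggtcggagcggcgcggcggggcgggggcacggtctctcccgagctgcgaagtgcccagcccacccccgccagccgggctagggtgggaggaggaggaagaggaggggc
A match is a string of letters and not a measured binding site. The GC content of the windows of these genes was 61.3 to 75.3%, against a median of 52.7% over all windows.

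Among the DNA-binding TEAD factors, none passed the adjusted threshold. Tead1 (chromosome 7, 112679318 to 112906807, plus strand, mm10), broadly expressed across tissues, had 925, 314 and 950 scaled reads in YAP, and 565, 548 and 224 in BrafYAP. YAP replicates 1 and 3 were above every BrafYAP library, whereas YAP replicate 2 was below BrafYAP replicates 1 and 2. The log2 fold change was -0.66 (SE 0.57, 95% interval -2.0 to 0.67, adjusted p = 0.532 by limma), and -0.23 without BrafYAP replicate 6. Tead1 overlaps 2310014F06Rik on the opposite strand, which had 37 to 207 reads and was highest in BrafYAP replicate 6, the library in which Tead1 was lowest.

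Tead2 (chromosome 7, 45215753 to 45233644, plus strand, mm10), known from the early embryo and progenitor cells, had 283, 476 and 584 scaled reads in YAP, and 568, 903 and 144 in BrafYAP. The BrafYAP libraries spanned the whole YAP range, with the highest value in replicate 2 and the lowest in replicate 6. Its log2 fold change was -0.03 (SE 0.68, adjusted p = 0.986 by limma), and 0.74 without BrafYAP replicate 6. Its 3′ end overlaps Cd37, a leukocyte gene on the opposite strand with 213 to 605 reads, only from 45233632 to 45233644. The part of shared reads was not tested.

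Tead4 (chromosome 6, 128224288 to 128300823, minus strand, mm10), the TEAD known for its role in trophectoderm, varied most among the 8 genes. Scaled reads were 52.9, 150 and 113 in YAP, and 293, 269 and 26.4 in BrafYAP. BrafYAP replicates 1 and 2 were above every YAP library, and BrafYAP replicate 6 was 10.6-fold below their mean. The log2 fold change was 0.41 (SE 0.95, 95% interval -1.83 to 2.64, adjusted p = 0.831 by limma). Without BrafYAP replicate 6 it was 1.53 (adjusted p = 0.163 by limma, unadjusted 0.0195). The value in BrafYAP replicate 6 rests on 30 reads, with an exact 95% Poisson interval of 20.2 to 42.8 that covers counting error alone. The 52 reads of the next lowest library, YAP replicate 1, have an interval of 38.8 to 68.2. Both intervals are in reads before the scaling between libraries, so they do not compare the scaled levels.

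Tead3 (chromosome 17, 28331671 to 28350817, minus strand, mm10), known from the placenta, had 86.5, 125 and 172 scaled reads in YAP, and 125, 152 and 80.0 in BrafYAP. The groups covered nearly the same range. Its log2 fold change was -0.10 (SE 0.43, adjusted p = 0.917 by limma), and 0.16 without BrafYAP replicate 6.

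The summed TPM of the 4 TEAD genes was 13.4, 15.4 and 22.8 in YAP, and 23.4, 30.1 and 5.90 in BrafYAP. In TPM, BrafYAP replicates 1 and 2 were above every YAP library, replicate 1 barely, and BrafYAP replicate 6 was below every one. The sum in scaled reads was 1347, 1064 and 1820 in YAP, and 1551, 1871 and 475 in BrafYAP. There BrafYAP replicate 1 was below YAP replicate 3, so its place depends on the length division. Tead2 took 47.2 ± 8.25% of the sum in YAP and 49.7 ± 7.02% in BrafYAP (SD, n = 3), so the genotypes differed by less than the spread between libraries. Tead1 took 28.3 ± 15.7% and 17.8 ± 6.54%, Tead4 15.0 ± 6.97% and 21.8 ± 10.1%, and Tead3 9.59 ± 1.11% and 10.7 ± 6.38%. Each of these differences was also within 1 SD of the more variable group. The ratio of summed coactivator TPM to summed TEAD TPM was 1.80, 3.60 and 1.42 in YAP, and 3.71, 3.97 and 8.29 in BrafYAP. Every BrafYAP library was above every YAP library in this ratio, though BrafYAP replicate 1 (3.71) was barely above YAP replicate 2 (3.60). The highest ratio, in BrafYAP replicate 6, came with the lowest TEAD sum (5.90). Groups without overlap were also seen in 28.8% of all single genes tested.

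The VGLL cofactors were at opposite ends of the range. Vgll4 (chromosome 6, 114860628 to 114969994, minus strand, mm10), the TEAD-binding antagonist of YAP, had 3124, 5944 and 4556 scaled reads in YAP, and 5550, 4631 and 3474 in BrafYAP. The groups overlapped over most of their range. The log2 fold change was 0.03 (SE 0.34, 95% interval -0.77 to 0.82, adjusted p = 0.974 by limma), the narrowest interval of the 8 genes, and 0.21 without BrafYAP replicate 6. BrafYAP replicate 6 was 1.47-fold below the mean of BrafYAP replicates 1 and 2, the smallest such gap among the 8.

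Vgll3 (chromosome 16, 65815257 to 65866368, plus strand, mm10), a vestigial-like cofactor of TEAD, was close to the limit of detection. Scaled reads were 36.6, 14.5 and 22.4 in YAP, and 35.1, 52.8 and 11.4 in BrafYAP. Both the highest and the lowest value were in BrafYAP libraries. Vgll3 had a log2 fold change of 0.27 (SE 0.72, adjusted p = 0.853 by limma), and of 0.88 without BrafYAP replicate 6. The 12 reads of YAP replicate 2 have an exact 95% Poisson interval of 6.20 to 20.96, and the 13 reads of BrafYAP replicate 6 one of 6.92 to 22.2. These intervals too are in reads before the scaling between libraries, so they do not compare the scaled levels.

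**Figure D3:**
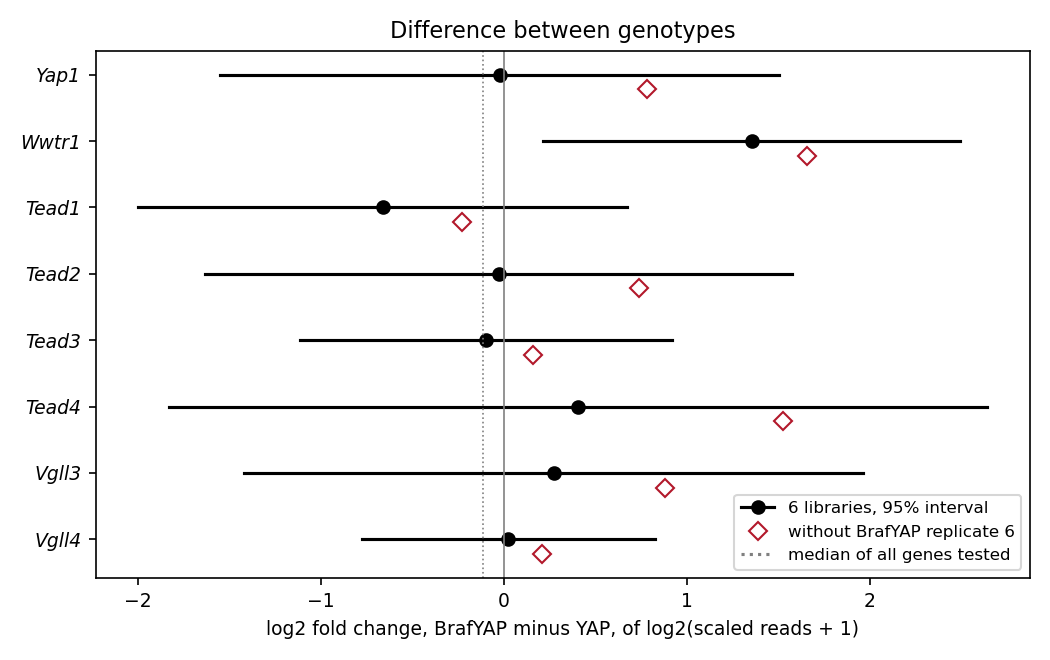
Log2 fold change (x axis, BrafYAP minus YAP, of log2(scaled reads + 1)) of each gene with its 95% interval from limma on 6 libraries (black), and the value without BrafYAP replicate 6 (open diamonds), with the median of all genes tested as a dotted line. Only the interval of Wwtr1 (0.22 to 2.50) lies above 0, and all 8 diamonds lie to the right of their black points.

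Leaving out BrafYAP replicate 6 turned the sign of Yap1, Tead2 and Tead3, as did leaving out YAP replicate 3 (0.048, 0.195 and 0.144), and the signs of Tead4, Vgll3 and Vgll4 turned without other libraries. BrafYAP replicate 6 was the lowest of the 6 libraries in 6 of 8 genes, all but Wwtr1 and Vgll4, against 31% of all genes tested. It was the highest in 0 of 8, against 23.8% of all genes. The lowest rank was narrow in Tead3 and Vgll3. Before scaling, Tead3 had 91 reads there and 85 in YAP replicate 1, and Vgll3 had 13 there and 12 in YAP replicate 2. The median ratio of BrafYAP replicate 6 to the mean of BrafYAP replicates 1 and 2 was 0.331 for the 8 genes and 0.912 for all genes. Without it, Yap1, Wwtr1 and Tead4 had an unadjusted p under 0.05, 3 of 8 genes against 21% of all genes (9.44% in the direction of BrafYAP), and each was higher in BrafYAP replicates 1 and 2 than in every YAP library, which held for 19% of all genes. After adjustment 0 of 8 passed, against 1.15% of all genes. In BrafYAP replicate 6 the thyroid markers Tg and Tshr were high, whereas the thyroid marker Pax8 was at its lowest. The endothelial markers Tie1 and Pecam1 had 892 and 696 reads there. Summed over 7 markers, endothelial scaled reads were 262 to 3360 in YAP and 131 to 2681 in BrafYAP. Of the 3360, in YAP replicate 2, 3116 were of Kdr, and 6 of the 7 markers were highest in BrafYAP replicate 6. The part of these cells or of differentiation in the low levels of the 8 genes was not tested, and in bulk libraries fewer cells of a type and less RNA per cell cannot be told apart.

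Per length, the levels of the 8 genes spanned a wide range. Mean TPM over the 6 libraries (exonic length) was 74.9 for Vgll4, 52.3 for Wwtr1, 9.24 for Tead2, 8.89 for Yap1, 3.87 for Tead1, 3.76 for Tead4, 1.64 for Tead3 and 0.364 for Vgll3. Wwtr1 was above Tead2, Yap1 above Tead1 and Tead3 above Vgll3 in all 6 libraries. Vgll4 was above Wwtr1, and Tead4 above Tead3, in 5 of 6. Tead2 was above Yap1 in 4 and Tead1 above Tead4 in 3 of 6, so that these neighbours did not differ beyond their spread. In the deposited values, divided by the whole genomic span, 38 of the 48 values of these genes were under 1.

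Across the 6 libraries some of the 8 genes followed each other more closely than others. The root mean square difference between log2 values, each centred on its own mean, was 0.306 for Tead3 and Vgll4 and 0.314 for Yap1 and Tead2, against 1.42 for Wwtr1 and Tead1. Of 11120 other genes, the most similar in pattern to Yap1 were Rras2 (0.110) and Rhebl1 (0.123), to Wwtr1 Fkbp9 (0.109) and Mfap3l (0.137), and to Tead4 Fhl2 (0.128) and Scnn1a (0.186). They were Lama3 (0.135) and Ccnk (0.143) for Tead1, Slco2a1 (0.0710) and Ppp1r13l (0.171) for Tead2, and Tsc2 (0.080) and Sft2d1 (0.0950) for Tead3. Prdx4 (0.0357) and Emc3 (0.0497) were closest to Vgll4, and Uchl1 (0.181) and Tnfrsf22 (0.213) to Vgll3. With so many candidates and 6 libraries, a close match is a description of these libraries.

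The genes around YAP and TAZ were described by 4 lists. Among all genes tested, the groups did not overlap in 28.8%. In the list of upstream Hippo kinases and scaffolds, 25 of 25 genes were tested, of which 1 was higher and 1 lower at an unadjusted p under 0.05, against 9.69% higher and 10.6% lower among all genes. The median log2 fold change was -0.15, and 0.24 without BrafYAP replicate 6. Stk4, a kinase (MST1) at the head of the pathway, had 2812, 2558 and 2785 scaled reads in YAP and 1886, 1168 and 1386 in BrafYAP. Its groups did not overlap (log2 fold change -0.90, adjusted p = 0.152 by limma), and it overlaps Tomm34 on the opposite strand. Mob1a, the LATS coactivator, had a log2 fold change of 1.15 (adjusted p = 0.244 by limma). Amot, a junctional scaffold that binds YAP, and Limd1, a LIM protein that binds LATS, had values of 1.11 and 0.75. The groups of Limd1 did not overlap.

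The list of degradation factors and 14-3-3 proteins holds, besides Usp9x, factors that keep phosphorylated YAP and TAZ in the cytoplasm or mark them for the proteasome. In this list 2 of 11 were higher and 0 lower at an unadjusted p under 0.05. The median was 0.26, and 0.35 without BrafYAP replicate 6. Fbxw11, the beta-TrCP2 subunit of an E3 ligase, had 895, 2041 and 1246 scaled reads in YAP and 3112, 3389 and 2132 in BrafYAP, without overlap (log2 fold change 1.10, adjusted p = 0.178 by limma). Ywhab, the 14-3-3 beta gene, was also without overlap at 1.07 (adjusted p = 0.181 by limma). The related genes Ywhae and Ywhag had values of -0.57 and -0.71, and the groups of Ywhae did not overlap.

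Of the other partners of YAP, TAZ or TEAD, 16 of 19 were tested, and 2 were higher and 2 lower at an unadjusted p under 0.05, with a median of -0.12, and of -0.057 without BrafYAP replicate 6. Pax8, a thyroid lineage factor that binds TAZ, had 11456, 12163 and 14514 scaled reads in YAP and 12348, 7151 and 5136 in BrafYAP (log2 fold change -0.72, adjusted p = 0.319 by limma). Nkx2-1, the other lineage partner, had 260.5, 157 and 299 in YAP and 220.4, 193 and 733 in BrafYAP, with its highest value in BrafYAP replicate 6 (0.45, adjusted p = 0.68 by limma). Jun, an AP-1 subunit that shares enhancers with TEAD, had 577, 5235 and 1464 in YAP and 6827, 10790 and 23402 in BrafYAP. The groups of Jun did not overlap (2.87, SE 0.82, adjusted p = 0.133 by limma), and the antisense gene Junos overlaps it. Fosl1, another AP-1 subunit, had a value of 1.89 with overlapping groups. Ncoa3 and Arid1a, a nuclear receptor coactivator and a chromatin remodelling subunit, had values of -0.93 and -0.84, both without overlap.

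In the YAP-TEAD targets, 20 of 23 genes were tested, 0 were higher and 1 lower at an unadjusted p under 0.05, and the median was -0.64. Without BrafYAP replicate 6 the median was 0.13. Amotl2, Lats2, Ajuba, Ptpn14 and Wwc1 are also in the list of upstream Hippo kinases and scaffolds, so the medians of these lists share genes. Of the 20 targets, 17 were lowest in BrafYAP replicate 6, against 31% of all genes. The best-known targets Cyr61 and Ctgf, both of secreted matricellular proteins, are 2 of the 23 but entered neither these counts and medians nor the sum, since their symbols in the table are not those of the annotation (Ccn1 and Ccn2). With the spans of Ccn1 and Ccn2, and without a test, Cyr61 had 11286, 128247 and 45394 scaled reads in YAP, and 144270, 142731 and 7083 in BrafYAP. Ctgf had 18320, 87565 and 33475 in YAP, and 239393, 389459 and 10666 in BrafYAP. In both genes BrafYAP replicates 1 and 2 were above every YAP library and BrafYAP replicate 6 was below every one. The summed scaled reads of the other targets were 65946, 119116 and 83382 in YAP, 98720 and 106557 in BrafYAP replicates 1 and 2, and 17681 in BrafYAP replicate 6. Yap1 and the 4 TEAD genes were lowest in that same library, Tead3 by a narrow margin. Axl, a receptor tyrosine kinase, had 26245, 43791 and 23678 in YAP, and 21168, 23230 and 2378 in BrafYAP, so that BrafYAP replicates 1 and 2 were just under the lowest YAP library and BrafYAP replicate 6 far under it (-1.51, adjusted p = 0.358 by limma). Ankrd1, a YAP target chosen after its values were seen, had 620 to 1050 reads in the other 5 libraries and 8 in BrafYAP replicate 6. Rbms3, an RNA-binding protein, was lower in every BrafYAP library than in every YAP library (-1.41, adjusted p = 0.117 by limma), also without BrafYAP replicate 6 (-1.59). Tgfb2 and Dock5 had values of -1.63 and -0.76, and the groups of Tgfb2 did not overlap.

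**Figure D4:**
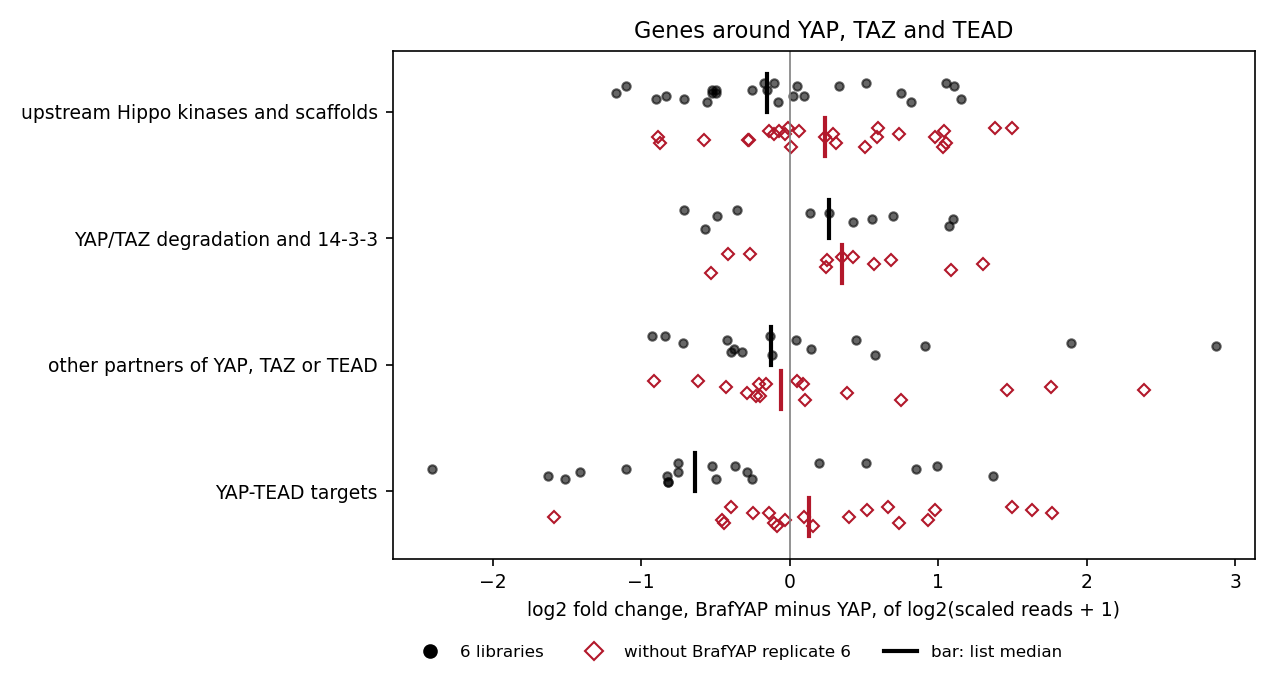
Log2 fold changes (x axis, BrafYAP minus YAP, of log2(scaled reads + 1)) of the genes tested in 4 lists, from 6 libraries (black points) and without BrafYAP replicate 6 (open diamonds), with each list's median as a bar. The median of the YAP-TEAD targets moves from -0.64 to 0.13 when that library is left out.

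Markers of other cells also differed between the libraries. Epithelial markers summed to 162289 to 516807 scaled reads in YAP and 220038 to 581627 in BrafYAP. Immune markers summed to 184638 to 647526 in YAP and 51781 to 198387 in BrafYAP, and 5 of the 8 tested were lower in BrafYAP at an unadjusted p under 0.05, against 10.6% of all genes. Lyz2 made up most of each immune sum, with 589545 in YAP replicate 1 and 44200 in BrafYAP replicate 6. Fibroblast markers summed to 14239 to 28527 and 11491 to 27971, and skeletal muscle markers to 58.1 to 555 and 100.2 to 135. Their part in the values of the 8 genes was not tested.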

How the data were processed

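Per the labels, paired 50-nt reads of SMART-Seq libraries from sorted cells were sequenced. Alignment by the authors was to mm10 with STAR 2.6.1d. They quantified Ensembl release 95 with the Partek E/M model, and deposited TPM with 0.0001 added. Columns were mapped to groups by GEO's titles. When low values (under 200 reads) were multiplied by genomic span (GENCODE M21), introns included, 71.7 to 76.0% per library were whole multiples of 1 step (tolerance 0.05), against 22.3 to 24.9% with exonic length, so the span was undone, which gave estimated reads for 34645 genes at one locus. These are no deposited counts, so no count model was used. Among the values of the 8 genes, 45 of 48 were within 0.05 of a whole number. Strand was not stated for the counting. PCR reads carry no molecular identifier, so intervals cover counting error only.

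Scaled reads were compared by limma 3.58.1 in R 4.3.3 (lmFit, eBayes with trend), two-sided, on log2(scaled reads + 1), with a mean of at least 10, Benjamini-Hochberg adjustment over all genes tested and a threshold of 0.05. The fit was tested on simulated data. P-values measure the spread between these samples. The 8 genes, the 4 pathway lists and the 6 marker lists were chosen with earlier results of these data known. 1 marker of the thyroid list is not reported here by name. Named were the 8 genes, Pax8 and Nkx2-1, the 4 genes of each list with the smallest unadjusted p, where none passed the adjusted threshold, and per gene the 2 genes most like it with a mean of at least 100 scaled reads, predicted genes passed over. Cyr61, Ctgf, Ankrd1 and the markers Tg, Tshr, Tie1, Pecam1, Kdr and Lyz2 were named after their values were seen. Genes in both the upstream and the target list were named for that overlap. Cyr61 and Ctgf were matched to their current symbols through RefSeq synonyms and are in no fit on scaled reads. Alternatives were other pseudocounts, filters, scalings and lengths, no trend, array weights, voom, a replicate block and each library left out.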

Additional observations from a re-analysis of the deposited data

How the results depend on the processing

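Of 143 values of the 8 genes under the alternatives, 117 kept their direction and side of the threshold, 25 changed sign and 1 passed the threshold. The number of genes past an adjusted p of 0.05, 0 of 16807, was 45 with a pseudocount of 10, 16 without the filter, 55 with equal read totals, 62 with quantile normalization, 18 on the deposited values, 62 on exonic-length TPM, 20 without a trend and 4659 with array weights. It ranged from 0 to 190 when each library was left out, with 190 without BrafYAP replicate 6 and 3 without YAP replicate 2. Of the 8 genes, 1 (Wwtr1, log2 fold change 1.74) passed with array weights, and 0 passed elsewhere. Vgll4 alone of the 8 could be tested on the deposited values, and Vgll3 could not be tested on exonic-length TPM. The cause was not tested.

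The numbers of the replicates pair at most 2 libraries per group. Same-numbered libraries deviated together with correlations of -0.0314 and 0.0472, so the numbers were not taken as pairs. With a replicate block, which gives BrafYAP replicate 6 and YAP replicate 3 no partner, 0 genes passed, and the log2 fold changes were 0.86 for Yap1, 0.046 for Tead1, 0.96 for Tead2 and 0.40 for Tead3, all of the opposite sign to the reported ones. They were 1.64 for Tead4 and 0.87 for Vgll3, over 1.5 times the reported values, 1.52 for Wwtr1 and 0.23 for Vgll4. The median of the YAP-TEAD targets was 0.18 with the block. Median-ratio rescaling gave 0.10 for Yap1, 0.10 for Tead2 and 0.027 for Tead3, exonic-length TPM gave 0.078 for Yap1 and 0.062 for Tead2, and array weights gave 0.55 for Yap1 and 0.21 for Tead2.

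Leaving out each library gave -0.45 to 0.78 for Yap1, 1.03 to 1.81 for Wwtr1, -1.19 to -0.23 for Tead1, -0.58 to 0.74 for Tead2, -0.35 to 0.16 for Tead3, -0.18 to 1.53 for Tead4, -0.18 to 0.88 for Vgll3 and -0.22 to 0.24 for Vgll4. Signs turned without BrafYAP replicate 6 in Yap1 (0.78), Tead2 (0.74) and Tead3 (0.16), without YAP replicate 3 in Yap1 (0.05), Tead2 (0.19) and Tead3 (0.14), without YAP replicate 2 in Tead2 (0.05) and Vgll3 (-0.04), without YAP replicate 1 in Tead4 (-0.02) and Vgll4 (-0.22), without BrafYAP replicate 1 in Tead4 (-0.18) and Vgll4 (-0.13), and without BrafYAP replicate 2 in Tead4 (-0.12) and Vgll3 (-0.18). The median of the YAP-TEAD targets ranged from -1.15 to 0.13. On the deposited values the median of the other partners was 0.18, over 6 genes.

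The length divisor sets the shares between genes. With genomic span and with no length division, Tead1 took 9.61% and 50.1% of the TEAD sum in YAP and 5.53% and 37.6% in BrafYAP, and Wwtr1 took 51.8% and 63.5% of the coactivator sum in YAP and 72.7% and 81.2% in BrafYAP. Depth limits Vgll3, with 12 to 68 reads per library, and Tead4 in BrafYAP replicate 6. Tead1 to Tead4, Yap1 and Wwtr1 had 30 to 7001 reads.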
